A study of Solanum lycopersicum with 84 samples.

Results

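Whole seeds of tomato (Solanum lycopersicum cv. Moneymaker) harvested at 15 and at 21 days after flowering (DAF) were compared by RNA sequencing. The comparison holds the 3 libraries of whole seed at 21 DAF and the 3 of whole seed at 15 DAF, which is 6 of the 84 libraries of the series, and they were chosen by tissue and age only. All plants were untreated, carried no mutation or transgene according to the labels, and were raised in a greenhouse, so the labels set the groups apart by seed age alone. Each library came from a pool of seeds taken by hand from the middle section of the fruit. The edgeR p-values and SE rest on the spread between replicate pools over all 28 tissue and stage groups of the series. They do not measure the spread of these 6 libraries alone. Embryo, endosperm and seed coat were not separated at these ages. Every level is a sum over the 3 tissues, and fewer cells of a type and less RNA per cell cannot be told apart.

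A seed first builds its embryo, endosperm and seed coat by division and differentiation, and then fills its cells with storage protein and oil in the maturation phase. In Arabidopsis, entry into maturation depends on a few transcription factors, among them the B3 domain proteins ABI3 and FUS3, which act together with the hormone abscisic acid (ABA). During maturation, cells accumulate oleosins, which coat oil bodies, and late embryogenesis abundant (LEA) proteins, which are linked to the survival of drying, while the maternal cell layers around them thicken their walls and become the seed coat.

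The libraries held between 16908779 and 21628623 estimated counts, and levels are given as CPM, the counts of a gene scaled by the total of its library, so that 3 counts in a library correspond to between 0.139 and 0.177 CPM. Of 24676 genes tested with edgeR's quasi-likelihood test, 2215 (8.98%) differed between the ages at a Benjamini-Hochberg adjusted p under 0.05 and an absolute log2 fold change above 1, and only these are called higher or lower below. At 21 DAF, 1163 genes (4.71%) were higher and 1052 (4.26%) were lower, and the median log2 fold change over all genes tested was -0.0024. Scaled by library totals instead of TMM, that median was -0.14 and the calls split into 956 higher and 1295 lower. Log2 CPM of replicates correlated with r between 0.988 and 0.995 across genes, which are not independent replicates.

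Replicate 2 at 21 DAF lay closer to 15 DAF than the others of its age. Genes called higher took between 1.28% and 1.34% of the counts at 15 DAF, and 8.45%, 5.44% and 7.59% in replicates 1, 2 and 3 at 21 DAF. Replicate 2 was the lowest of the 3 libraries at 21 DAF for 772 of the 1163 genes called higher (66.4%), whereas it was the lowest for 25.9% of all genes tested. It was also the highest of the 3 for 522 of the 1052 genes called lower (49.6%), against 39.5% of all genes tested. These shares describe genes that were called with the same libraries. Without replicate 2 at 21 DAF, 1130 genes were higher and 815 lower, and without replicate 3 at 21 DAF, 958 were higher and 681 lower.

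Most of the maturation regulators rose. Of 10 regulators that the study names, 6 were higher at 21 DAF, none was lower, and their median log2 fold change was 1.92. Of all genes tested, 4.71% were higher, and 56.6% had libraries that did not overlap between the ages. SlFUS3, the ortholog of FUSCA3, had 4.78, 6.92 and 4.79 CPM at 15 DAF and 58.4, 48.2 and 53.4 CPM at 21 DAF. The 2 ages did not overlap, and its log2 fold change was 3.42 ± 0.55 (SE, n = 3 and 3, edgeR adjusted p = 4.8e-06). SlABI3-1, an ortholog of ABSCISIC ACID INSENSITIVE3, had 8.98, 10.5 and 8.27 CPM and then 71.2, 49.5 and 62.2 CPM, again without overlap, with a log2 fold change of 2.86 ± 0.22 (edgeR adjusted p = 8.4e-16). The second copy, SlABI3-2, was lower at both ages, with 0.378, 0.473 and 0.327 CPM followed by 11.1, 6.94 and 10.1 CPM, and its log2 fold change was 4.70 ± 0.57 (edgeR adjusted p = 5.1e-09). For all 3 genes replicate 2 was the lowest library at 21 DAF.

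ABI5 and ABI4 are transcription factors of ABA response, known from Arabidopsis. SlABI5 was at 3 counts or fewer in every library at 15 DAF and had 1.82, 0.695 and 1.62 CPM at 21 DAF, which is at least 9.01-fold higher when 3 counts a library are taken as the level at 15 DAF (edgeR adjusted p = 7.8e-10). SlABI4-2 had 1.74, 1.59 and 1.29 CPM and then 7.93, 6.61 and 7.72 CPM (log2 fold change 2.39 ± 0.62, edgeR adjusted p = 0.0040). The levels of both rose beyond the spread of the libraries. The other copy, SlABI4-1, had 2.61, 2.19 and 1.60 CPM at 15 DAF and 4.27, 2.65 and 3.01 CPM at 21 DAF, and its log2 fold change of 0.78 ± 0.60 did not pass the test (edgeR adjusted p = 0.42).

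SlWRI1 is the ortholog of WRINKLED1, which in Arabidopsis turns on fatty acid synthesis genes. It had 77.8, 76.6 and 65.4 CPM at 15 DAF and 177, 171 and 195 CPM at 21 DAF. The groups lay far apart relative to their spread, with a log2 fold change of 1.45 ± 0.47 (edgeR adjusted p = 0.022). Without replicate 1, 2 or 3 at 15 DAF or without replicate 3 at 21 DAF, SlWRI1 no longer passed (edgeR adjusted p between 0.058 and 0.071), nor did it with DESeq2 on the 84 libraries (adjusted p = 0.066), which left 5 regulators higher. SlPROCERA, the DELLA protein that holds back gibberellin responses, had 156, 149 and 169 CPM at 15 DAF and 78.9, 95.7 and 87.8 CPM at 21 DAF. All 3 older libraries were below the younger ones, but the log2 fold change of -0.71 ± 0.20 stayed inside the fold threshold (edgeR adjusted p = 0.0081). SlDOG1-1 and SlDOG1-2, relatives of the Arabidopsis dormancy gene DELAY OF GERMINATION 1, did not exceed 0.511 and 0.139 CPM in any of the 6 libraries and were not called. At 28 DAF the means were 77.9 ± 4.85 CPM for SlFUS3, 75.5 ± 5.71 for SlABI3-1, 182 ± 3.93 for SlWRI1 and 57.8 ± 6.55 for SlPROCERA (SD, n = 3).

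**Figure D1:**
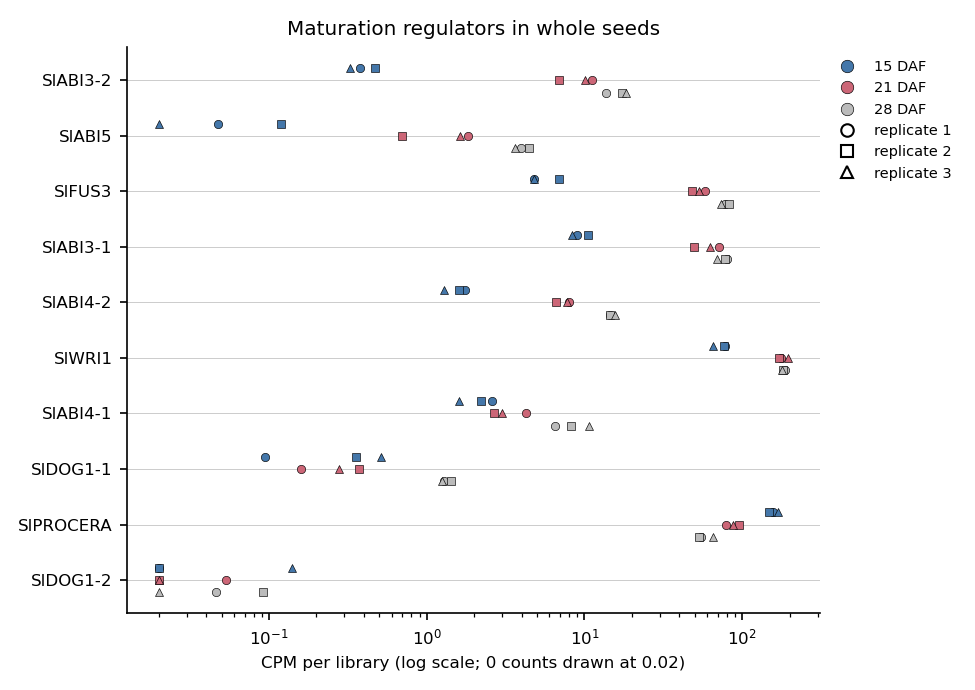
CPM (log axis) of the 10 maturation regulators in each whole seed library at 15, 21 and 28 DAF, with 1 symbol per replicate and 0 counts drawn at 0.02. SlFUS3 lies between 4.78 and 6.92 CPM at 15 DAF and between 48.2 and 58.4 CPM at 21 DAF, while SlPROCERA falls from at least 149 to at most 95.7 CPM without passing the fold threshold.

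Genes with a storage protein description changed in both directions. Among the described genes, 3 carry a storage protein description, and 2 were higher and 1 lower. Both that rose come from module tables drawn on these libraries, and the one that fell from the table of expressed genes. Solyc09g065470.3.1, described as vicilin-like antimicrobial peptides 2-1 (vicilins are globulin storage proteins), had 0.284, 0.177 and 0.186 CPM at 15 DAF and 177, 75.5 and 126 CPM at 21 DAF. Solyc02g085590.4.1, a vicilin-like seed storage protein, had 0.804, 0.710 and 0.697 CPM and then 152, 98.0 and 134 CPM. The log2 fold changes were 9.26 ± 0.42 (edgeR adjusted p = 9.9e-27) and 7.56 ± 0.34 (edgeR adjusted p = 6.2e-27), and in both genes replicate 1 was highest and replicate 2 lowest at 21 DAF. The member that fell, Solyc01g109390.3.1, is described only by the family of bifunctional inhibitors, lipid transfer proteins and 2S albumins. It had 467, 465 and 472 CPM at 15 DAF and 42.0, 97.2 and 82.0 CPM at 21 DAF (log2 fold change -2.53 ± 0.38, edgeR adjusted p = 5.2e-05), and reached 0.353 ± 0.414 CPM at 28 DAF. DESeq2 on the 84 libraries did not call Solyc01g109390.3.1 (adjusted p = 0.90).

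Oil body proteins rose as a group. All 6 described members were higher, against 4.71% of all genes tested, with a median log2 fold change of 5.42, or 4.70 when the 2 members at 3 counts or fewer at 15 DAF are set to their lower bound. The oleosin Solyc06g034040.1.1 had 1.28, 1.77 and 2.23 CPM at 15 DAF and 272, 146 and 192 CPM at 21 DAF, a mean 115-fold higher (log2 fold change 6.98 ± 0.30, edgeR adjusted p = 1.6e-27). The groups did not overlap in any of the 6 genes, and replicate 1 was the highest library at 21 DAF in all 6. Lack of overlap is common to called genes, with 1116 of all 1163 genes called higher, and replicate 1 was highest in 606 of the 1163. The oleosin S1-2-like gene Solyc07g065990.1.1 had 0.757, 0.887 and 0.372 CPM and then 10.3, 6.53 and 9.48 CPM, and the oleosin Solyc03g119820.1.1 had 1.13, 1.42 and 0.930 CPM and then 8.29, 5.70 and 7.26 CPM. The oil body-associated protein 2A-like genes, Solyc03g005940.4.1 and Solyc02g071760.4.1, had at most 1 count per library at 15 DAF and were at least 60.2-fold and 46.8-fold higher at 21 DAF. All 6 entries came from tables of co-expression modules that the study drew on these libraries, so their direction is not independent evidence.

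Of the 4 described genes of fatty acid and oil synthesis, 1 was higher, against 4.71% of all genes tested. It was Solyc06g074680.4.1, a phospholipid:diacylglycerol acyltransferase, an enzyme class that forms triacylglycerol, with 1.09, 0.473 and 0.744 CPM and then 11.02, 7.36 and 10.6 CPM (log2 fold change 3.75 ± 0.35, edgeR adjusted p = 5.5e-13). The acyl carrier protein Solyc06g054510.4.1, which holds the growing fatty acid chain, had 173, 186 and 184 CPM and then 277, 268 and 273 CPM. Its groups did not overlap, yet its log2 fold change of 0.73 ± 0.29 did not pass (edgeR adjusted p = 0.068). The 4 genes described as hydroxysteroid dehydrogenases, a list chosen after its values were seen and drawn from module tables, were all higher, with a median log2 fold change of 4.67. Of these, 11-beta-hydroxysteroid dehydrogenase-like 5 (Solyc06g064650.4.1) had 0.236, 0.591 and 0.186 CPM and then 103, 57.6 and 74.9 CPM (log2 fold change 8.02 ± 0.34, edgeR adjusted p = 6.9e-28). Proteins of this family, called steroleosins, sit on oil bodies in other plant seeds.

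LEA transcripts rose broadly. Of 26 described LEA and seed maturation proteins tested, 20 were higher, against 4.71% of all genes tested, and none was lower. Their median log2 fold change was 3.10. It was 2.73 with members at 3 counts or fewer in every 15 DAF library set to their lower bound. Any member with 3 counts or fewer in every library of both ages was left out of this second median. Of these 26, 6 came from the study's table of expressed genes, and 4 of those 6 were higher. The other 20 came from module tables made from these libraries, so their count is not independent evidence of the direction. Solyc09g014750.1.1 had 0.0946, 0.237 and 0.139 CPM at 15 DAF and 119, 77.9 and 88.9 CPM at 21 DAF (log2 fold change 9.34 ± 0.40, edgeR adjusted p = 6.9e-28). LEA protein 6 (Solyc06g061110.2.1) had 0.236, 0.237 and 0.0930 CPM and then 28.9, 20.7 and 21.4 CPM, and LEA protein Dc3 (Solyc03g116390.4.1) had 1.56, 3.55 and 1.67 CPM and then 110, 71.4 and 71.7 CPM. None of the 20 overlapped between the ages, and replicate 1 was highest at 21 DAF in 18 of them. Among all 1163 genes called higher, 1116 did not overlap and 606 had replicate 1 highest.

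The LEA genes that rose did not all reach similar levels relative to later stages. The dehydrin Solyc02g084840.3.1 had 0.898, 1.12 and 1.91 CPM and then 8.56, 5.19 and 4.72 CPM, and its mean at 35 DAF reached 288 ± 56.1 CPM (embryo) and 381 ± 71.5 CPM (endosperm). The 11 kDa LEA protein Solyc10g078770.2.1 had 0.189, 0.177 and 0.186 CPM and then 1.76, 1.53 and 1.85 CPM, whereas its mean in the 35 DAF embryo was 1911 CPM. By contrast, Solyc07g053360.4.1 already had 23.5, 20.9 and 24.7 CPM at 15 DAF and had 130, 113 and 129 CPM at 21 DAF, near its 28 DAF mean of 138 ± 20.9 CPM. The 6 members that were not called included the seed maturation proteins PM41 (Solyc03g046380.1.1, edgeR adjusted p = 0.052) and Solyc07g066400.1.1, which had mean levels of 0.515 ± 0.589 and 0.0997 ± 0.0870 CPM at 21 DAF. At 35 DAF, 19 of the 26 had their highest mean in the embryo and 7 in the endosperm.

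**Figure D2:**
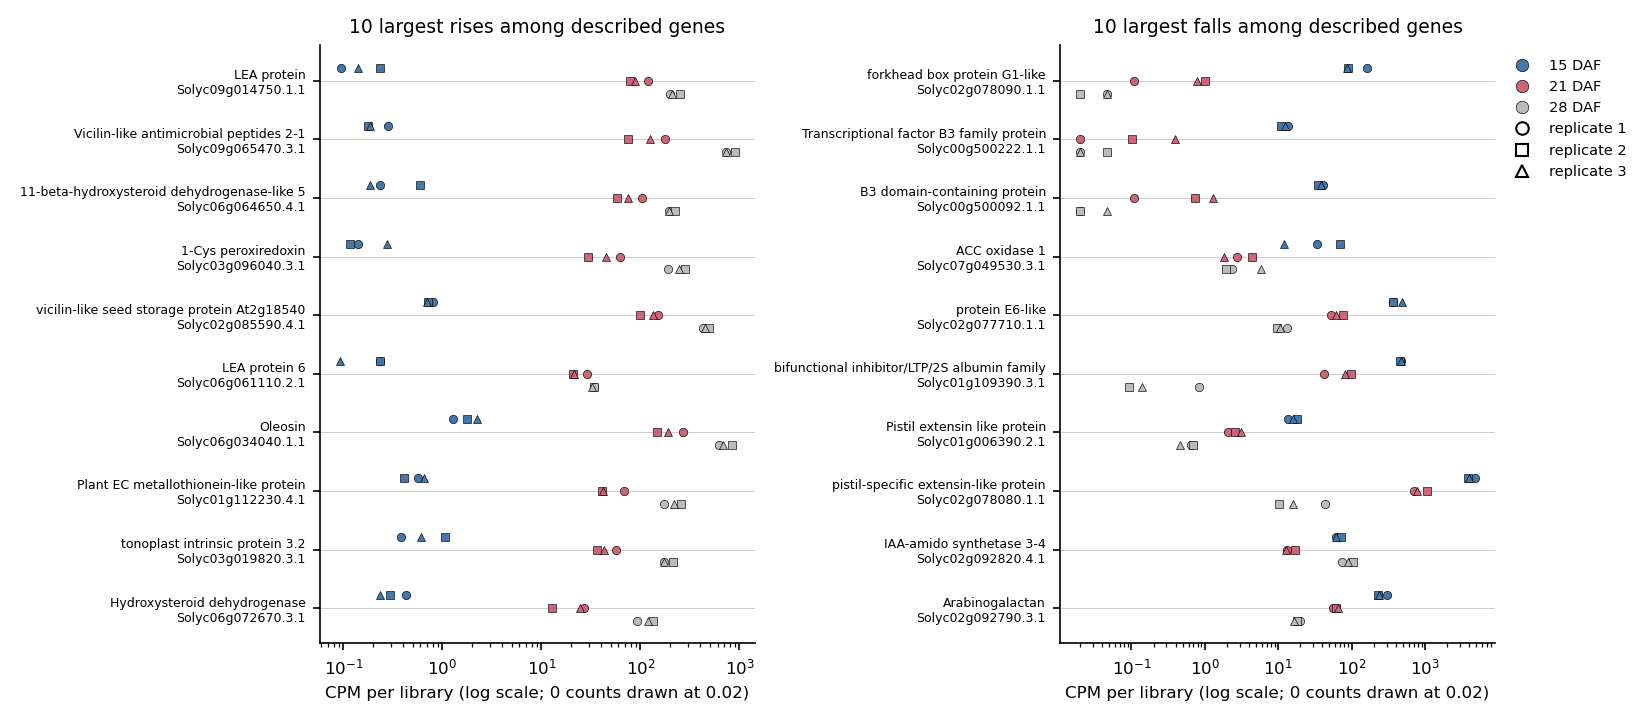
CPM (log axis) in each whole seed library at 15, 21 and 28 DAF for the 10 genes with the largest rises and the 10 with the largest falls among genes that carry a description, average 10 CPM or more at the higher age and do not overlap between 15 and 21 DAF, with 1 symbol per replicate and 0 counts drawn at 0.02. In all 10 rises replicate 1 is the highest and replicate 2 the lowest library at 21 DAF.

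Other proteins known from dry seeds were among the 10 largest rises of described genes, taken among those with at least 10 CPM at 21 DAF and no overlap between the ages. The 1-Cys peroxiredoxin Solyc03g096040.3.1, a peroxide-reducing enzyme of embryos and endosperm, had 0.142, 0.118 and 0.279 CPM and then 62.1, 29.4 and 44.7 CPM (log2 fold change 8.01 ± 0.38, edgeR adjusted p = 8.5e-26). The plant EC metallothionein-like gene Solyc01g112230.4.1, of a family that binds zinc, had 0.567, 0.414 and 0.651 CPM and then 68.9, 40.7 and 41.7 CPM. Tonoplast intrinsic protein 3.2 (Solyc03g019820.3.1), of a class of water channels found on storage vacuoles, had 0.378, 1.06 and 0.604 CPM and then 56.5, 36.4 and 43.2 CPM. The last 2 had log2 fold changes of 6.63 ± 0.30 (edgeR adjusted p = 1.0e-26) and 6.21 ± 0.37 (edgeR adjusted p = 3.6e-21).

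Small heat shock proteins, chaperones that bind unfolded proteins, rose in part. Of 11 tested, 5 were higher, against 4.71% of all genes tested, and 6 were not called, with a median log2 fold change of 1.40. Solyc04g072250.4.1, a small class I member, had at most 1 count per library at 15 DAF and 1.23, 0.324 and 1.20 CPM at 21 DAF, at least 6.01-fold higher. The class I heat shock protein Solyc06g076560.2.1 had 11.4, 10.7 and 15.2 CPM and then 32.8, 28.4 and 28.7 CPM (log2 fold change 1.40 ± 0.39, edgeR adjusted p = 0.0069), and its 28 DAF mean of 31.1 ± 0.285 CPM was of the same size. The count depended on single libraries, since it was 2 without replicate 1 and 3 without replicate 2 at 15 DAF, and 3 without replicate 1 or replicate 3 at 21 DAF. The count was 8 with DESeq2 on the 84 libraries and in the fits of the 9 whole seed libraries. All 11 entries came from module tables.

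For ABA itself few genes were described. The 9-cis-epoxycarotenoid dioxygenase Solyc05g053530.1.1, of the enzyme class that commits carotenoids to ABA, had 0.0473, 0.0591 and 0.186 CPM and then 0.802, 0.880 and 0.509 CPM (log2 fold change 2.88 ± 0.94, edgeR adjusted p = 0.023). It was not called without replicate 1 or 2 at 15 DAF or without replicate 1 or 2 at 21 DAF, with edgeR adjusted p between 0.056 and 0.105. The ABA receptor PYL10 (Solyc01g095700.3.1) had 7.80, 6.51 and 6.46 CPM and then 2.14, 1.95 and 2.73 CPM, a fall of 1.47 ± 0.41 on the log2 scale (edgeR adjusted p = 0.0079). Neither gene overlapped between the ages, but nor did 56.6% of all genes tested. Of 12 described genes of ethylene synthesis and response, 1 was higher and 1 lower, close to the 4.71% and 4.26% of all genes tested, so nothing is read from the list. The gene that fell, 1-aminocyclopropane-1-carboxylate oxidase 1 (Solyc07g049530.3.1), which makes ethylene from its precursor, varied widely at 15 DAF, with 34.2, 69.6 and 12.2 CPM, and had 2.75, 4.45 and 1.83 CPM at 21 DAF (log2 fold change -3.52 ± 0.70, edgeR adjusted p = 0.00017). The gene that rose, Solyc02g077820.1.1, an ethylene-responsive transcription factor, had 0 counts in all 15 DAF libraries and 1.18, 0.695 and 0.694 CPM at 21 DAF, at least 5.59-fold higher.

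Among lists taken from gene ontology (GO) terms that the study attached to its co-expression modules, somatic embryogenesis held 15 genes. Of these, 11 were higher, against 4.71% of all genes tested, and none lower, with a median log2 fold change of 2.23. In 14 of the 15 the highest 35 DAF mean was in the endosperm. Solyc05g005380.3.1 had 1.32, 2.01 and 1.30 CPM and then 33.9, 18.8 and 27.2 CPM (log2 fold change 4.25 ± 0.59, edgeR adjusted p = 2.1e-07). Solyc05g005440.3.1 had 5.53, 6.03 and 3.21 CPM and then 49.5, 43.0 and 42.1 CPM, and Solyc10g009440.4.1 had 4.57, 5.15 and 4.13 CPM and then 28.9, 25.4 and 27.4 CPM. All 11 genes were free of overlap between the ages, as were 1116 of all 1163 genes called higher. One called member, Solyc04g015060.3.1, did not share the endosperm maximum: it had 8.84, 7.33 and 7.34 CPM, then 47.6, 39.9 and 54.3 CPM, and only 2.61, 0.153 and 0.104 CPM on average in embryo, endosperm and seed coat at 35 DAF. With DESeq2 on the 84 libraries, 7 of the 15 were called, and in the fits of the 9 whole seed libraries 12 were.

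The same module's lists for jasmonic acid and flavonoid metabolism, of which 21 genes each were held, had 3 and 6 genes higher and none lower, with medians of 0.72 and 0.94, beside 4.71% of all genes tested. The jasmonic acid count was 2 or 3 without single libraries, 2 with DESeq2 on the 84 libraries and 7 in the fit of the 9 whole seed libraries. Solyc07g054940.2.1 of the flavonoid list had 30.1, 34.3 and 20.5 CPM and then 163, 130 and 149 CPM (log2 fold change 2.52 ± 0.51, edgeR adjusted p = 0.00019). Without single libraries the flavonoid count was 3, 2 and 2 without replicates 1, 2 and 3 at 15 DAF, and 3, 5 and 3 without replicates 1, 2 and 3 at 21 DAF. It was 3 with DESeq2 on the 84 libraries and 9 in the fit of the 9 whole seed libraries. Of 10 genes under root meristem growth, from another module and including both copies of ABI4, 4 were higher with a median of 1.17, and 9 of the 10 had their highest 35 DAF mean in the embryo. All these modules were drawn on these libraries, dissected tissues included, so the counts are not independent evidence of direction or of tissue. The same holds for the somatic embryogenesis list.

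Genes of secondary wall lists differed widely between the libraries of 21 DAF. Secondary walls are the thick cellulose-rich layers laid down after a cell has stopped growing. In the modules ME20 and ME15 these terms held 16 and 10 genes, all 26 with their highest 35 DAF mean in the seed coat. At 21 DAF 7 and 3 were higher, against 4.71% of all genes tested, and none lower, with medians of 1.70 and 0.87. Both modules were drawn on these libraries, dissected tissues included, so neither the direction nor the tissue is independent evidence. A list of the same kind from module ME1 had 2 of 21 genes higher and 1 lower with a median of 0.19, and neither rise was called when any 1 of the 6 libraries was left out. In all 10 genes called in ME20 and ME15 replicate 3 was the highest and replicate 2 the lowest library at 21 DAF, and in 5 of the 10 replicate 2 fell inside or below the range of 15 DAF. Solyc09g072820.4.1, also listed under cellulose, mucilage and seed coat terms, had 1.80, 1.18 and 1.95 CPM at 15 DAF and 35.99, 3.70 and 57.7 CPM at 21 DAF (log2 fold change 4.42 ± 0.58, edgeR adjusted p = 4.1e-08). Solyc06g050530.3.1 had 0, 0 and 0.0465 CPM and then 13.7, 0.0926 and 25.7 CPM, so that replicate 2 was hardly above the younger seeds while replicates 1 and 3 were far above them. Solyc10g005010.4.1 had 0, 0.0591 and 0 CPM and then 15.2, 8.38 and 19.5 CPM, at least 93.9-fold higher.

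Replicate 2 and replicate 3 decided these counts in opposite directions. Without replicate 2 at 21 DAF, 9 and 4 genes of the 2 secondary wall lists were higher, and without replicate 3 at 21 DAF, 4 and 1. The medians were 0.95 and 0.57 without replicate 3 at 21 DAF, and 2.20 and 1.37 without replicate 2. In the fit of the 6 libraries alone 2 and 1 genes were higher, with medians of 1.58 and 1.99. At 28 DAF all 3 libraries were high, and Solyc09g072820.4.1 reached 248 ± 31.8 CPM and Solyc06g050530.3.1 reached 160 ± 15.2 CPM. Of 6 genes under lignin synthesis none was called, and no mean exceeded 0.368 CPM at either age, so no direction is given for them. The summed level of the seed coat markers did not single out replicate 2 to the same degree, at 160374, 153314 and 159096 CPM in replicates 1, 2 and 3 at 21 DAF, and the part of tissue proportions in these counts was not tested.

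**Figure D3:**
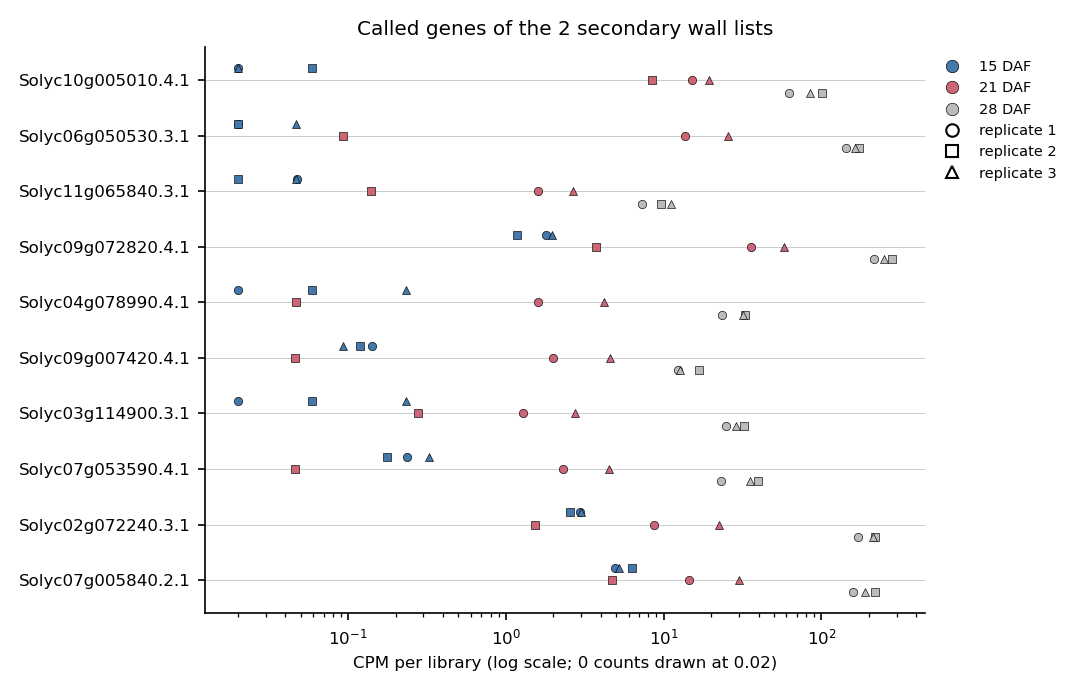
CPM (log axis) in each whole seed library at 15, 21 and 28 DAF for the 10 genes called higher in the secondary wall lists of 2 modules, with 1 symbol per replicate and 0 counts drawn at 0.02. At 21 DAF replicate 2 (square) is the lowest and replicate 3 (triangle) the highest library for every gene, and in 5 genes the square overlaps the libraries of 15 DAF.

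Among the described genes that fell, with at least 10 CPM at 15 DAF and no overlap between the ages, 1 had the lowest log2 fold change. The gene described as forkhead box protein G1-like (Solyc02g078090.1.1) had 164, 90.1 and 86.3 CPM at 15 DAF and 0.107, 1.02 and 0.786 CPM at 21 DAF, a mean 178-fold lower (log2 fold change -7.30 ± 0.64, edgeR adjusted p = 9.8e-06). At 28 DAF it had 0.0307 ± 0.0266 CPM, and no count in any dissected tissue at 35 DAF. The description came from the study's table and was not checked against a sequence. DESeq2 on the 84 libraries did not call this gene, nor the B3 gene Solyc00g500222.1.1, although both genes were called by both tools in fits of the 9 whole seed libraries.

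Several B3 domain genes, of the large plant family of DNA-binding proteins to which ABI3 and FUS3 belong, fell at the same time as those regulators rose. Of 14 genes so described, a list chosen after its values were seen, 7 were lower and 2 higher, with a median log2 fold change of -1.23. Of all genes tested, 4.26% were lower and 4.71% higher. Solyc00g500092.1.1 had 41.0, 34.5 and 38.1 CPM and then 0.107, 0.732 and 1.29 CPM (log2 fold change -5.56 ± 0.73, edgeR adjusted p = 6.6e-06), but DESeq2 on the 84 libraries did not call Solyc00g500092.1.1 (adjusted p = 0.69). Solyc00g500222.1.1 had 13.5, 11.1 and 12.3 CPM and then 0, 0.103 and 0.396 CPM (log2 fold change -5.93 ± 0.83, edgeR adjusted p = 1.5e-06). In all 7 replicate 1 was the lowest library at 21 DAF, as it was in 495 of all 1052 genes called lower. The 2 that rose were Solyc01g108950.3.1, with 4.87, 5.68 and 3.49 CPM and then 14.8, 13.8 and 12.5 CPM, and the VRN1-like gene Solyc01g013995.2.1, with a mean of 1.05 ± 0.111 CPM and then 4.61 ± 1.15 CPM. At 35 DAF the latter had 27.0 ± 0.976 CPM in endosperm and under 1 CPM in embryo and seed coat. With DESeq2 on the 84 libraries 2 of the 14 were lower, and in the fits of the 9 whole seed libraries 8 were, with either tool.

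Genes under the GO term for the killing of other organisms' cells, a term used for antimicrobial proteins, were mostly lower. Of 9 genes in the list, 8 were lower, against 4.26% of all genes tested, and none higher, with a median log2 fold change of -3.63. The module was drawn on these libraries, and the direction is therefore not independent. Solyc07g008373.1.1 had 212, 165 and 139 CPM at 15 DAF and 7.70, 14.0 and 13.04 CPM at 21 DAF (log2 fold change -3.75 ± 0.39, edgeR adjusted p = 1.2e-05). Solyc10g074447.1.1 had 60.0, 51.3 and 41.1 CPM and then 10.2, 13.5 and 10.2 CPM. Solyc09g007010.1.1 and Solyc09g006005.1.1 were uneven at 15 DAF, with 8.09, 50.98 and 49.0 CPM and with 3.64, 22.7 and 27.7 CPM, replicate 1 being the lowest in both, and had at most 7.04 and 3.24 CPM at 21 DAF. The 8 genes had means of at most 1.06 CPM at 28 DAF and at most 0.681 CPM in any dissected tissue at 35 DAF. The only member with a description, defensin-like protein 1 (Solyc01g011435.1.1), had 1.08 ± 0.0732 CPM and then 0.849 ± 0.193 CPM and was not called. DESeq2 on the 84 libraries called none of the 9, and on the 9 whole seed libraries it called 7, giving no adjusted p for Solyc09g007010.1.1. That gene also lost its call without replicate 1 or replicate 3 at 21 DAF (edgeR adjusted p = 0.066 and 0.055). Several of these genes carry neighbouring numbers, and how reads were divided between similar copies was not analysed here.

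Some genes of wall proteins were lower. Extensins and arabinogalactan proteins are hydroxyproline-rich proteins of the cell wall. Of 13 genes so described, 6 were lower, against 4.26% of all genes tested, and none higher, with a median of -1.27. The list was chosen after its values were seen. The pistil-specific extensin-like gene Solyc02g078080.1.1 had 4799, 3874 and 4017 CPM at 15 DAF and 718, 1076 and 779 CPM at 21 DAF (log2 fold change -2.17 ± 0.39, edgeR adjusted p = 0.00012), and 23.0 ± 17.4 CPM at 28 DAF. The arabinogalactan gene Solyc02g092790.3.1 had 299.8, 228 and 235 CPM and then 55.8, 61.5 and 64.7 CPM (log2 fold change -1.93 ± 0.67, edgeR adjusted p = 0.037). In both genes all older libraries lay below all younger ones, but the arabinogalactan gene lost its call without any 1 of the 6 libraries (edgeR adjusted p between 0.060 and 0.12), and DESeq2 on the 84 libraries did not call Solyc02g078080.1.1 (adjusted p = 0.26). The extensin count was 3, 4 and 5 without replicates 1, 2 and 3 at 15 DAF, and 2, 4 and 3 without replicates 1, 2 and 3 at 21 DAF, and DESeq2 on the 84 libraries called 4. In the fits of the 9 whole seed libraries the count was 8 with either tool.

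The cell wall modification list, of which 21 genes were held, comes from a module drawn on these libraries. Of the 21, 6 were lower, against 4.26% of all genes tested, and none higher, with a median of -0.43. Solyc08g083210.3.1 had 145, 117 and 138 CPM and then 9.47, 13.6 and 11.2 CPM (log2 fold change -3.40 ± 0.43, edgeR adjusted p = 4.6e-08), and Solyc09g010210.3.1 had 232, 226 and 208 CPM and then 39.2, 39.5 and 41.7 CPM. The count was 4, 4 and 3 without replicates 1, 2 and 3 at 15 DAF, and 3, 2 and 2 without replicates 1, 2 and 3 at 21 DAF. DESeq2 on the 84 libraries gave 3, and the fits of the 9 whole seed libraries gave 9 with either tool. The protein E6-like gene Solyc02g077710.1.1, named after a cotton fibre protein, had 367, 363 and 482 CPM and then 53.2, 76.2 and 61.4 CPM (log2 fold change -2.53 ± 0.87, edgeR adjusted p = 0.033). IAA-amido synthetase 3-4 (Solyc02g092820.4.1), of an enzyme family that joins auxin to amino acids, had 62.0, 72.8 and 61.4 CPM and then 13.2, 16.8 and 12.8 CPM, and returned to 89.4 ± 16.0 CPM at 28 DAF. The E6-like gene lost its call without any 1 of the 6 libraries (edgeR adjusted p between 0.057 and 0.12), Solyc02g092820.4.1 without replicate 2 at 15 DAF or any library of 21 DAF (up to 0.097), and Solyc09g010210.3.1 without any library of 21 DAF (up to 0.063).

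**Figure D4:**
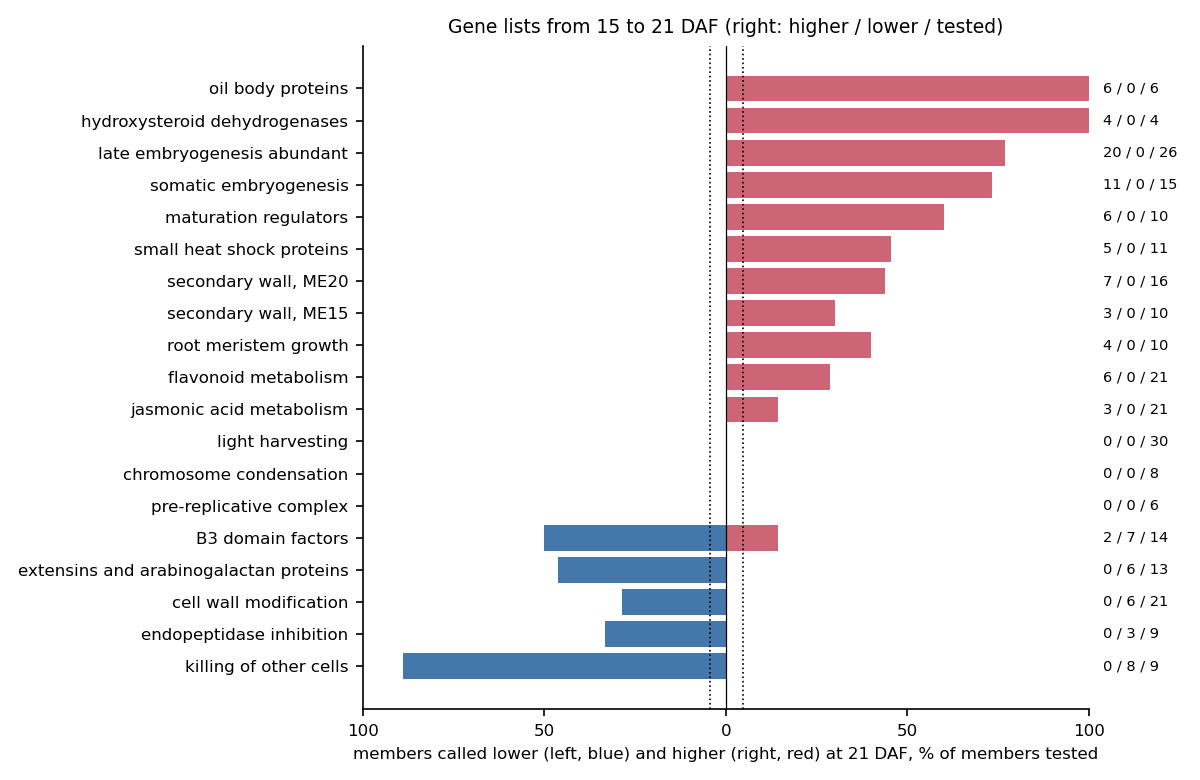
Share of the tested members of 19 gene lists that were called higher (red, to the right) or lower (blue, to the left) at 21 DAF, with the numbers higher, lower and tested at the right; ME20 and ME15 are the study's module names, and dotted lines mark the shares of all genes tested, 4.71% higher and 4.26% lower. Oil body proteins and LEA proteins have 6 of 6 and 20 of 26 members higher, killing of other cells has 8 of 9 lower, and light harvesting has none of 30 called.

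Other groups had few genes called or none, where 8.98% of all genes tested were called in either direction. Lists of this size hold few calls at that share, so nothing is read from these counts. None of 30 light harvesting genes was called, although 25 of the 30 estimates were below 0 and their median was -0.38, and 1 of 17 genes of photosystem II assembly was higher with a median of -0.28. None of 6 genes of the pre-replicative complex, which licenses DNA for replication, and none of 8 genes of chromosome condensation was called, with medians of -0.05 and -0.40. The ribonucleoside-diphosphate reductase subunit Solyc03g112570.2.1, which makes DNA precursors, had 20.0, 21.6 and 18.9 CPM at 15 DAF and 22.3, 21.9 and 23.8 CPM at 21 DAF. Its log2 fold change was 0.31 ± 0.23 (edgeR adjusted p = 0.40). None of the 4 described genes of the raffinose family was called, with a median of 1.01, and the raffinose synthase SlSIP1 had 9.46, 10.7 and 11.9 CPM and then 19.1, 16.4 and 18.8 CPM (log2 fold change 0.90 ± 0.49, edgeR adjusted p = 0.21). A p above the threshold does not show that levels were the same.

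Single described factors that rose included the MADS-box gene Solyc04g078300.3.1, with 0.236, 0.651 and 0.232 CPM and then 9.41, 4.21 and 7.26 CPM (log2 fold change 4.39 ± 0.45, edgeR adjusted p = 1.6e-11). It was the only one of 6 described MADS-box genes that was called, where 4.71% of all genes tested were higher. Its mean at 35 DAF was 111 CPM in endosperm and 3.74 and 2.79 CPM in embryo and seed coat. Of 7 described protease inhibitors and defensins, 2 were higher, against 4.71% of all genes tested, and 5 were not called. Both that rose are described as defensins, peptides of plant defence, and come from module tables drawn on these libraries, and 1 was called without replicate 2 at 15 DAF. Solyc07g007710.4.1 had 0.520, 0.828 and 0.418 CPM and then 5.72, 1.99 and 2.64 CPM, and Solyc04g072470.4.1 was at least 5.96-fold higher from 3 counts or fewer. At 35 DAF both had means of 107 CPM in the embryo, and their endosperm means were 120 and 166 CPM.

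The counts shifted toward fewer genes. The 10 genes with the most counts took 7.62%, 7.07% and 7.80% of the total at 15 DAF and 10.4%, 9.37% and 9.69% at 21 DAF, without overlap (two-sided exact permutation test, p = 0.1, the smallest that 3 against 3 allows), and 23.8% ± 2.998 at 28 DAF. These counts are not corrected for transcript length. Of 13 genes in either list of 10, 7 were in both. Solyc09g092767.1.1 entered the list with 27.5, 30.8 and 32.98 CPM at 15 DAF and 9632, 2786 and 11496 CPM at 21 DAF (log2 fold change 8.18 ± 1.25, edgeR adjusted p = 2.3e-06), and it had 288652 CPM on average in the seed coat at 35 DAF. Solyc09g025210.3.1 had 7.90, 9.58 and 7.996 CPM and then 10402, 4891 and 6963 CPM (log2 fold change 9.91 ± 0.97, edgeR adjusted p = 4.5e-12), and at 35 DAF its means were 138084 CPM (embryo) and 96337 CPM (endosperm). In the first replicate 3 was highest and in the second replicate 1, and replicate 2 was lowest in both. No source used here describes these 2 genes.

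The genes that changed differed in where they were found at 35 DAF, when embryo, endosperm and seed coat had been dissected in other libraries. Of the 1163 genes called higher, 502 (43.2%) had their highest 35 DAF mean in the endosperm, 285 (24.5%) in the embryo and 231 (19.9%) in the seed coat, and 145 (12.5%) were under 1 CPM in each. Of the 1052 called lower, 120 (11.4%) were highest in the endosperm, 203 (19.3%) in the embryo and 346 (32.9%) in the seed coat, and 383 (36.4%) were under 1 CPM in each. Over all genes tested the shares were 34.5% endosperm, 20.8% embryo, 23.6% seed coat and 21.1% under 1 CPM.

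Marker genes were defined as at least 10 times higher in a tissue than in both others at 35 DAF. Markers of each tissue were present at both ages: 239 and 280 of 316 embryo markers and 257 and 285 of 327 endosperm markers had at least 1 CPM at 15 and 21 DAF. No fruit tissue marker could be measured, because no gene carried such a description. The summed endosperm markers had 19113, 17049 and 17523 CPM at 15 DAF and 20132, 19013 and 18978 CPM at 21 DAF, and the groups overlapped (p = 0.3, two-sided exact permutation test). With markers at 5 times, with TMM scaling or without the most abundant marker, all older libraries lay above all younger ones (p = 0.1 by the same exact permutation test, the smallest possible). Still, 145 of the 327 genes were higher and 5 lower, with a median of 1.03, against 4.71% higher and 4.26% lower of all genes tested. The most abundant of the 327, Solyc02g062313.1.1, had 5541 ± 407 CPM and then 3129 ± 468 CPM.

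The summed embryo markers had 9732, 10592 and 10298 CPM at 15 DAF and 5081, 5232 and 5399 CPM at 21 DAF, about 0.513 times the level (p = 0.1, two-sided exact permutation test, the smallest possible). Of the 316 genes, 52 were higher and 27 lower, with a median of 0.05, where 4.71% of all genes tested were higher and 4.26% lower. The seed coat sum went from 120854 ± 4023 to 157594 ± 3762 CPM (p = 0.1, same exact permutation test), with 112 of 693 genes higher and 53 lower and a median of 0.20. Of that rise, Solyc09g092767.1.1 added 7941 CPM, Solyc05g051260.3.1 7438 CPM and Solyc08g007620.2.1 5404 CPM, and the last 2 were not called. The sums and the counts of genes thus did not point the same way in the embryo markers. Among them the mean of Solyc02g089250.4.1 fell from 720 to 173 CPM and that of Solyc01g096040.4.1 from 709 to 198 CPM. That of Solyc08g078890.3.1 rose from 0.691 to 91.1 CPM. Markers were defined at 35 DAF only, and the tissue in which they were expressed at 15 and 21 DAF was not measured. No value here tells a change in tissue size from a change in RNA per cell.

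**Figure D5:**
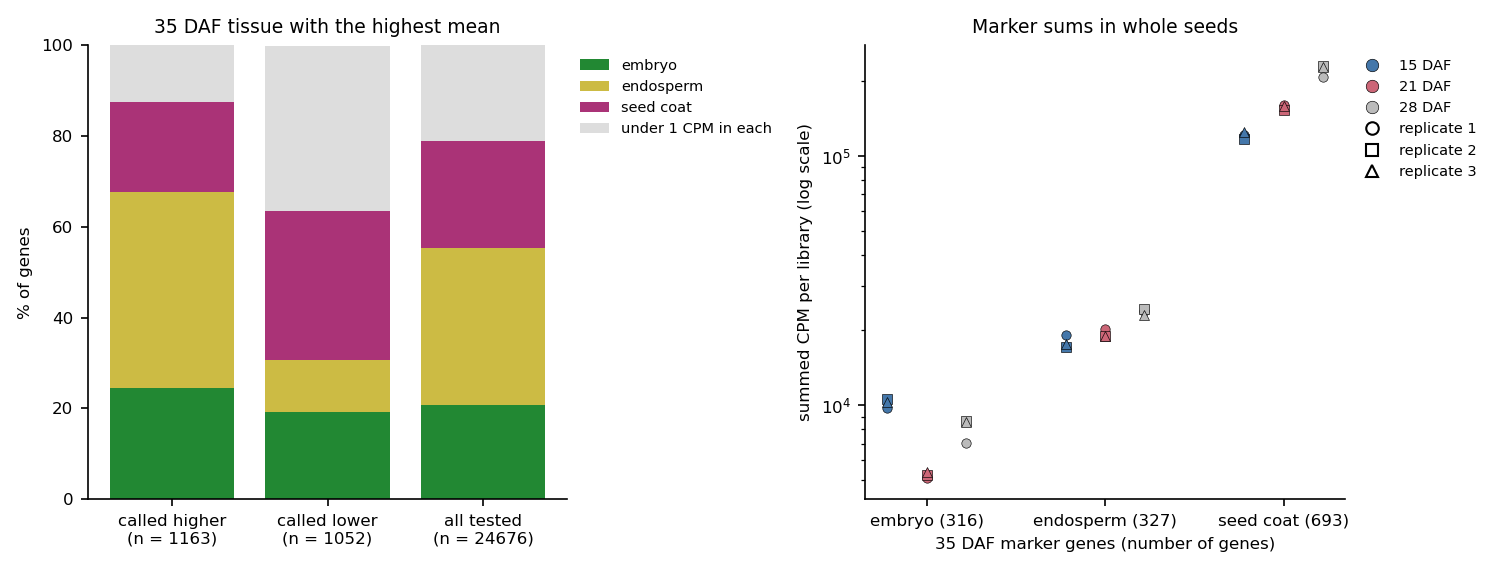
Left: percent of genes called higher, called lower and of all genes tested by the dissected tissue with the highest mean at 35 DAF, where 43.2%, 11.4% and 34.5% fall to the endosperm. Right: summed CPM (log axis) of the 35 DAF markers of each tissue in the whole seed libraries at 15, 21 and 28 DAF, 1 symbol per replicate; the embryo sum is lower at 21 DAF than at 15 DAF in every library.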

How the data were processed

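RNA of tomato seeds was sequenced by the study as single-end reads on a BGISEQ-500 and quantified with Salmon against the ITAG 4.0 transcripts of SL4.0. The authors deposited estimated counts of 33976 genes in 84 libraries of 28 tissue and stage groups, unscaled; 10.5% of the values are not whole. Counts were rounded. The test was edgeR's quasi-likelihood fit (version 4.0.16, R 4.3.3) with TMM scaling and filterByExpr, in which every group of the series had its own coefficient, and Benjamini-Hochberg adjustment ran over 24676 genes. CPM uses library totals; SD is over 3 libraries. On simulated data the fit recovered 200 of 200 changed genes, with 4 wrong calls. That simulation gave all genes and groups the same spread and changed only well-counted genes, each 4-fold. It therefore does not speak for low counts, smaller changes or spreads that differ between tissues. Descriptions came only from the paper's text and supplementary tables, held in part (1262 genes); some tables list genes by position, others by co-expression module. Named genes were the study's 10 regulators, up to 4 called members per list, the 10 largest described rises and falls and 2 of each without description (all with at least 10 CPM at the higher age and no overlap between the ages), and the 10 most abundant at each age; further list members were named after their values were seen. The members and lists were chosen with earlier results of these data known. DESeq2 1.42.0, other scalings, filters and sample sets were alternatives. Promoters were not analysed here. Floors of 3 counts cover counting error only, while SE and SD include the spread between pools. For the SE that spread is taken over all groups of the fit, and for the SD over the 3 libraries of a group.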

Additional observations from a re-analysis of the deposited data

How the results depend on the processing

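No named gene that was called changed direction in the 15 alternative fits. Of 75 named genes called, 39 passed in all of them and 36 lost the call in at least 1. Without a fold threshold 4362 genes passed, 2379 higher and 1983 lower. The fit of the 9 whole seed libraries tested 21843 genes, of which 11042 passed without a fold threshold. Its median SE was 0.115, against 0.301 in the fit of all 84 libraries, where the spread of a gene is estimated over all groups together. The genes called lower numbered 1612 in a fit of the 9 whole seed libraries; leaving out single libraries gave between 681 and 989, the fewest without replicate 3 at 21 DAF. DESeq2 on all libraries called 1928 genes (1112 higher, 816 lower) and on the 9 whole seed libraries, a fit added after seeing the data, 3054. The cause of these differences was not tested.

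With the replicate number as a block in the fit of the 6 libraries, 2992 genes were called, 1384 higher and 1608 lower, against 2931 without the block. Deviations of same-numbered libraries at 15 and 21 DAF correlated with 0.353, -0.0113 and 0.25 for numbers 1, 2 and 3. Replicates 1 and 3 at 15 DAF correlated best with the same number at 21 DAF, and replicate 2 with replicate 1 (0.059). The labels give only a replicate number, and whether same-numbered libraries share a harvest or batch was not tested.

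The embryo marker ratio of 21 over 15 DAF was 0.513, and 0.585 with markers at 5 times and 0.565 with TMM. The endosperm ratio was 1.08, and 1.19 with TMM and 1.31 without its most abundant gene. The seed coat ratio was 1.30, and 1.25 at 5 times and 1.43 with TMM. The share of the top genes rose by 2.33 percentage points for 10 genes and 4.11 for 50. Requiring a 35 DAF tissue to be 2 times the next left 189 embryo genes among those higher and 63 endosperm genes among those lower.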
